A study of Mus musculus with 18 samples.

Results

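The unfolded protein response and the folding machinery of the endoplasmic reticulum (ER) were followed through 32 genes, chosen by symbol from the 18264 genes listed in an RNA sequencing table of fibroblasts cultured from the ventricles of newborn mice (NVCFs), cells that lay down the collagen matrix of the heart. All 32 symbols were found once. By role, 5 are stress sensors and transcription factors, 10 are Hsp70 and Hsp90 chaperones with their cofactors, 6 are lectin chaperones and disulfide isomerases, 7 belong to ER-associated degradation, and 4 serve translocation and glycosylation. The study asked what Foxm1, a transcription factor best known from the cell cycle, does to the transcripts of these fibroblasts. Its 18 libraries fell into 6 groups of 3. In the knockdown arm, cells carried siRNA against Foxm1 together with the hormone angiotensin II (si-Foxm1+Ang-II), had angiotensin II (Ang-II), carried siRNA against Foxm1 alone (si-Foxm1), or carried a negative control siRNA (si-NC). In the other arm Foxm1 was overexpressed (OE-Foxm1) or a control for overexpression was used (OE-NC). The labels give no strain, dose, time or vector, do not say whether Ang-II cells had also been given control siRNA, and do not say whether replicates were separate cultures, so each p-value measures the spread between these libraries.

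Proteins that enter the secretory pathway fold inside the ER, where Hspa5 (BiP) and other chaperones hold unfolded chains. When unfolded chains accumulate, the sensors Ern1 (IRE1α), Eif2ak3 (PERK) and Atf6 signal to the nucleus: Ern1 splices the mRNA of Xbp1, Eif2ak3 slows translation, and Atf6 is cut in the Golgi to release a transcription factor. Spliced Xbp1 and cleaved Atf6 raise the genes of chaperones, of disulfide isomerases and of ER-associated degradation (ERAD), which carries misfolded proteins to the proteasome. Fibroblasts that secrete collagen load this machinery heavily. Splicing of Xbp1 and cleavage of Atf6 cannot be read from gene-level values.

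The ER stress element (ERSE), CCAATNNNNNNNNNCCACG, is the promoter sequence through which Atf6 and Xbp1 act together with NF-Y, and it is shown because the members' calls are counted by it further on. Windows of 300 bases around the gene start (250 before, 50 after; RefSeq, GRCm38.p6, not the build of the deposited table) were available for 25 of the 32 members. Both strands were searched. ERSE was found in 9 of these 25 members, against 39 of all 32851 windows (0.119%). The members were chosen as genes of this response, so an excess of its elements over all windows is not a test. The matches, written along the strand on which the element reads, have the fixed bases in capitals:
Calr: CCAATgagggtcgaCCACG
Canx: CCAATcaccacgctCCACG
Creld2: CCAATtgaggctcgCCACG
Derl3: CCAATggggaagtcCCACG
Dnajc3: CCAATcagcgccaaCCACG
Hsp90b1 nearer match: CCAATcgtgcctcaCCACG
Hsp90b1 farther match: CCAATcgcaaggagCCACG
Hspa5: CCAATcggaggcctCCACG
Pdia6: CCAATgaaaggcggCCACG
Syvn1: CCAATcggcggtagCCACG
ERSE-II (ATTGG, any base N, then CCACG) was found in 2 members, against 12 of all windows (0.0365%), and shares its CCACG end with ERSE. The fixed bases are again in capitals:
Dnajb11: ATTGGcCCACG
Herpud1: ATTGGgCCACG
The core of the element bound by Xbp1 and Atf6 alone (UPRE core, TGACGTG) was found in 1 member, Hspa5, against 661 windows (2.01%). Whole stretches of the 250 bases before the gene start are printed for the chaperones Hspa5 and Hsp90b1, for Pdia6, the member lowered most by the siRNA, and for Derl3, the member with the widest range, with the whole match in capitals. The Derl3 match and the nearer Hsp90b1 match read on the other strand, so they stand here in reverse complement. Each stretch is 5′ to 3′ on the strand of its gene, at chr2:34771840-34772089, plus strand, chr10:86705445-86705694, minus strand, chr12:17266339-17266588, plus strand and chr10:75893148-75893397, plus strand.
Hspa5: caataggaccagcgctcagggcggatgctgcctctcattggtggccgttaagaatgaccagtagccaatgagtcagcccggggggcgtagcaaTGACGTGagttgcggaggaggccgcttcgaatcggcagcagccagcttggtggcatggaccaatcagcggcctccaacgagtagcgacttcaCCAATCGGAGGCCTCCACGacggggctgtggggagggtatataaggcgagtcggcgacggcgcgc
Hsp90b1: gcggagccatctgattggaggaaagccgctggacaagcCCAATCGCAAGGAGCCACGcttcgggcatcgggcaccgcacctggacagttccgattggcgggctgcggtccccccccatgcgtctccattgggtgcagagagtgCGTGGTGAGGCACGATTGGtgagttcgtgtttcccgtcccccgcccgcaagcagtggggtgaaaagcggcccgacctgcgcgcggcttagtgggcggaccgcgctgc
Pdia6: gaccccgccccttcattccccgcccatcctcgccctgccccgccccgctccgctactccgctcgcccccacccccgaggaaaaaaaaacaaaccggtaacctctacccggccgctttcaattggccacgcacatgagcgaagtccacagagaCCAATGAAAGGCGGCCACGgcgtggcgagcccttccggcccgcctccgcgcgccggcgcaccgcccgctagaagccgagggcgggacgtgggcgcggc
Derl3: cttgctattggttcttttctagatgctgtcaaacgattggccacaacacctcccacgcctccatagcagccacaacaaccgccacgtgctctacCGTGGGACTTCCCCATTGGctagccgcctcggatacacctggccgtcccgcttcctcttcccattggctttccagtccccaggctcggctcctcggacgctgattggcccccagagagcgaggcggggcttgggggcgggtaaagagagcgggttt
In Hspa5 the element ended 47 bases before the gene start, and in Pdia6 80 bases before it. Hsp90b1 held 2 matches in opposite orientation. A match is a string of letters, and binding was not measured.

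All values are in FPKM, which corrects a fragment count for gene length and library size, so levels can be set side by side between genes. Libraries held between 14988993 and 19343343 counted fragments, and the OE-NC libraries were the smallest. The targeted gene, Foxm1, averaged 5.97 ± 0.79 FPKM in si-Foxm1 cells and 10.1 ± 0.41 FPKM in si-NC cells (SD, n = 3 each). It averaged 3.32 ± 0.26 FPKM in si-Foxm1+Ang-II cells and 4.64 ± 0.88 FPKM in Ang-II cells, and 455 ± 49 FPKM in OE-Foxm1 cells and 16.6 ± 0.80 FPKM in OE-NC cells, where introduced and native Foxm1 cannot be told apart. Foxm1 was also lower in Ang-II cells, set against si-NC cells (log2 fold change -0.99 ± 0.10 SE, adjusted p = 2.63e-06 by limma). Between the arms no comparison is made. Differences between libraries of a group, as a mean chi-square over genes, were 1.69 to 5.46, and the 2 highest, 5.03 and 5.46, set Ang-II replicate 3 against the other Ang-II libraries.

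The labelled cell type was checked against marker lists. The 13 fibroblast markers summed to 6795 to 6929 FPKM in si-Foxm1+Ang-II, 7170 to 7458 in Ang-II, 5559 to 5847 in si-Foxm1, 6159 to 6364 in si-NC, 6229 to 6302 in OE-Foxm1 and 5508 to 5718 in OE-NC libraries. The 18 cardiomyocyte markers were also abundant and differed between groups. They summed to 7185 to 7430, 12276 to 13382, 9260 to 9812 and 16016 to 17248 FPKM in si-Foxm1+Ang-II, Ang-II, si-Foxm1 and si-NC libraries. In OE-Foxm1 and OE-NC libraries they summed to 10610 to 11133 and 9474 to 10032 FPKM. In every group this sum exceeded that of the fibroblast markers, so the check did not settle the labelled cell type. The 12 macrophage and leukocyte markers summed to 134 to 155, 323 to 353, 134 to 169 and 266 to 273 FPKM in the same order of knockdown groups, and to 278 to 315 and 199 to 219.7 FPKM in OE-Foxm1 and OE-NC. The 10 endothelial markers summed to 190.0 to 203, 163 to 166, 226 to 234 and 195 to 197 FPKM in si-Foxm1+Ang-II, Ang-II, si-Foxm1 and si-NC libraries, and to 196 to 201 and 179 to 184 FPKM in OE-Foxm1 and OE-NC. The 8 smooth muscle and pericyte markers summed to 220.5 to 229, 255 to 282, 164 to 179.7 and 207 to 222 FPKM in the same knockdown groups. In OE-Foxm1 and OE-NC they summed to 183 to 193 and 185 to 193 FPKM. In the fibroblast, the macrophage and the smooth muscle lists, Ang-II lay above si-NC without overlap. In the same lists each siRNA group lay below its own control without overlap. The summed members did both. OE-Foxm1 lay above OE-NC without overlap in the summed members and in every list but that of smooth muscle and pericytes. No marker of any list was at 0 in every library. In bulk libraries such as these, fewer cells of a type and less RNA per cell cannot be told apart. The part of cell composition in the results below was not tested.

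Per kilobase, the most abundant members were the chaperones Calr, Hspa5 and Hsp90b1 and the isomerase Pdia3, each at 219 FPKM or more in every library when rounded to whole FPKM. The sensors were far less abundant: Ern1 had 4.90 to 8.11 FPKM and Eif2ak3 6.72 to 10.1 FPKM over the 18 libraries. Among the 31 members with a mean of at least 1 FPKM, which were the ones tested, the highest library exceeded the lowest by 1.15-fold (Derl1) to 1.73-fold (Sdf2l1). Derl3 lay below that limit in both arms and is described on its own. Summed over the 32 members, the level was 2706 to 2771 FPKM in si-Foxm1+Ang-II, 2777 to 2916 in Ang-II, 2320 to 2379 in si-Foxm1 and 2401 to 2472 in si-NC libraries. In the other arm it was 2718 to 2747 FPKM in OE-Foxm1 and 2497 to 2574 FPKM in OE-NC libraries. Within each of the pairs compared, these ranges did not overlap. Several members overlap a neighbour in the GENCODE M21 annotation of GRCm38, among them Pdia6 with Atp6v1c2, Derl2 with Mis12, Pdia3 with Catsper2 and Syvn1 with Mrpl49 on the opposite strand, and Manf with Rbm15b on the same strand. The libraries were stranded, but whether counting used strand is not given in the sources used here, and Calr has 1 named pseudogene.

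**Figure D1:**
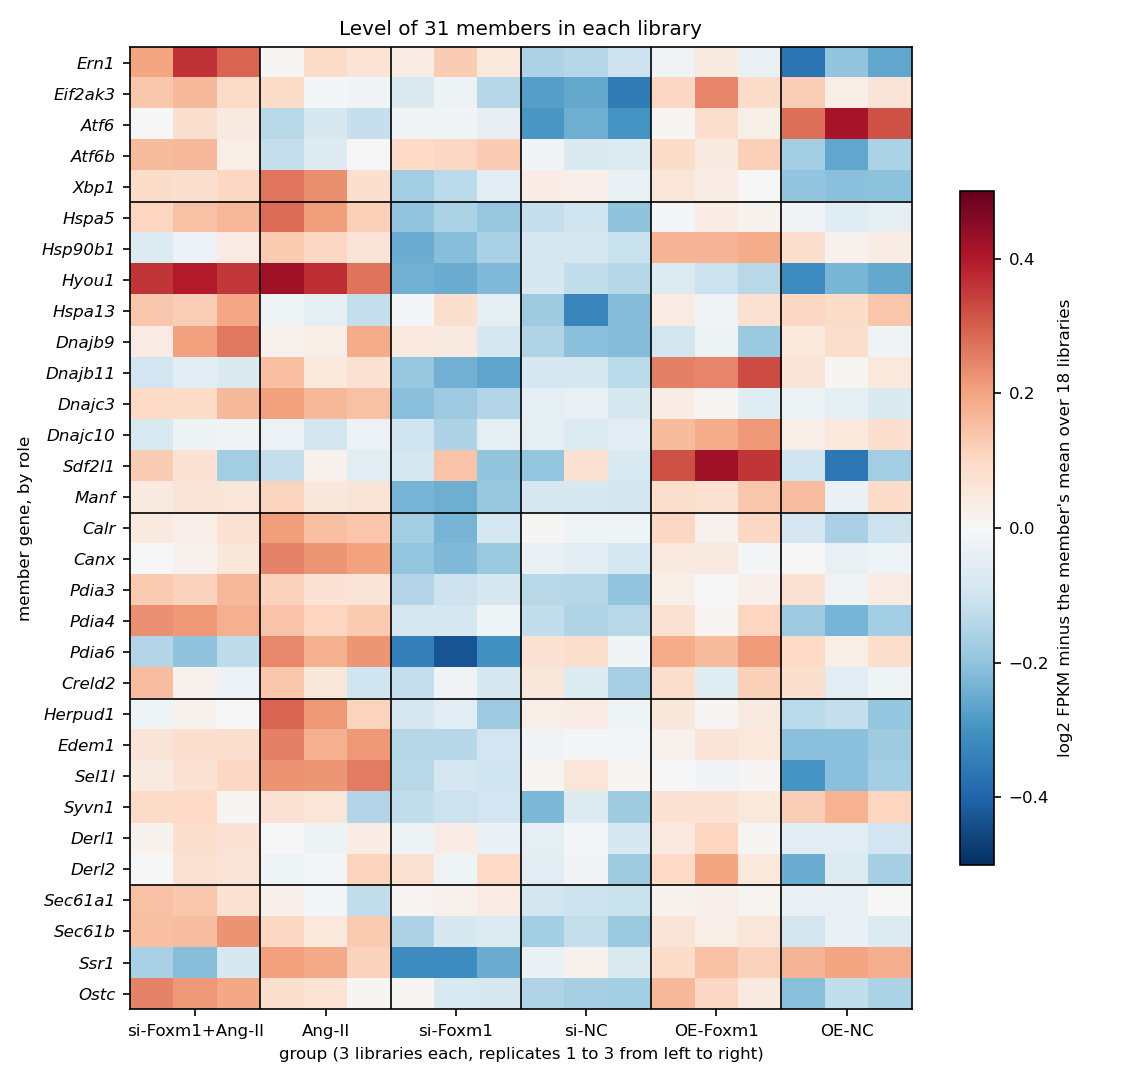
Level of 31 members in each of the 18 libraries, as log2 FPKM minus the member's mean over all libraries (red above, blue below), with members in rows by role and libraries in columns by group. Hyou1 is red in the 6 libraries with angiotensin, Pdia6 and Ssr1 are blue in si-Foxm1 cells, and Sdf2l1 is red in OE-Foxm1 cells.

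Angiotensin II went with higher levels of most members. Of the 31 tested, 24 rose and 0 fell in Ang-II against si-NC cells, where 15.2% of all genes tested were called higher and 29.2% lower (limma on log2(FPKM + 1), adjusted p under 0.05). The median log2 fold change of the members was 0.19, beside -0.03 over all genes. By role, 4 of the 5 sensors and factors rose, 8 of the 10 Hsp70 and Hsp90 chaperones and cofactors, 5 of the 6 lectin chaperones and isomerases, 4 of the 6 tested ERAD members and 3 of the 4 translocation and glycosylation members. Cardiomyocyte markers moved the other way in the same libraries (17 of 18 called lower and 1 higher). Of the macrophage markers 4 of 9 tested were called higher, and of the endothelial markers 7 of 9 lower. The remaining macrophage and endothelial markers went the other way or gave no call. Of the 7 tested smooth muscle and pericyte markers 3 were called higher and 3 lower, and of the 13 fibroblast markers 4 higher and 7 lower.

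Among the sensors, Eif2ak3 had 9.13, 8.52 and 8.49 FPKM in Ang-II libraries, against 7.08, 7.16 and 6.72 FPKM in si-NC libraries, a log2 fold change of 0.28 ± 0.04 SE, adjusted p = 0.000103. Every Ang-II library lay above every si-NC library. Xbp1, the transcription factor whose mRNA Ern1 splices, had 59.1, 57.7 and 52.04 FPKM in Ang-II and 50.4, 50.04 and 48.01 FPKM in si-NC cells, with Ang-II replicate 3 nearest to the controls (log2 fold change 0.18 ± 0.04 SE, adjusted p = 0.00389). Ern1 and Atf6 rose by 0.16 each on the log2 scale. Atf6b, a relative of Atf6 that is cleaved in the same way, had a log2 fold change of -0.01 with a 95% interval of -0.09 to 0.07.

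The largest rise of any member was that of Hyou1, an ER relative of Hsp70 that serves as a nucleotide exchange factor for Hspa5. It had 51.5, 49.6 and 46.3 FPKM in Ang-II libraries, against 36.3, 35.3 and 34.8 FPKM in si-NC libraries, a log2 fold change of 0.46 ± 0.04 SE, adjusted p = 2.81e-07. Hspa5, the main Hsp70 of the ER, followed with 415, 395 and 371 FPKM in Ang-II and 315, 319 and 298 FPKM in si-NC cells (log2 fold change 0.34 ± 0.04 SE, adjusted p = 7.43e-06). In neither gene did the groups overlap. The cofactors Dnajb9, Dnajc3 and Dnajb11, J-domain proteins that work with Hspa5, rose by 0.26, 0.22 and 0.19. Hsp90b1, the Hsp90 of the ER, and Manf, a secreted ER stress protein, rose by 0.19 and 0.16, and the Hsp70-like Hspa13 by 0.17. Of the cofactors, 2 gave no call, namely Dnajc10, an ER disulfide reductase, at 0.01 (95% interval -0.06 to 0.07) and Sdf2l1, a partner of Hspa5 complexes, at 0.01 (95% interval -0.17 to 0.20).

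The lectin chaperone Canx, which holds glycoproteins at the ER membrane, had 185, 182 and 179 FPKM in Ang-II and 152, 151 and 147 FPKM in si-NC libraries (log2 fold change 0.28 ± 0.03 SE, adjusted p = 1.32e-06), and its soluble relative Calr rose by 0.18. The disulfide isomerases Pdia4, Pdia3 and Pdia6 rose by 0.26, 0.24 and 0.16. Creld2, a further isomerase induced by ER stress, had a log2 fold change of 0.09 (95% interval -0.05 to 0.23) and was not called. In ERAD, the mannosidase-like Edem1, the ligase adaptor Sel1l and the scaffold Herpud1 rose by 0.22, 0.20 and 0.19, and the ligase Syvn1 passed narrowly (0.14, adjusted p = 0.0497) with overlapping groups. The Derlins Derl1 and Derl2 were not called (0.05 and 0.10). The translocon subunit Sec61b, the oligosaccharyltransferase subunit Ostc and the translocon-associated Ssr1 rose by 0.25, 0.21 and 0.19, whereas the channel gene Sec61a1 stood at 0.07 without a call. Under median-of-ratios scaling 27 members were called higher and 0 lower, beside 20.7% and 22.9% of all genes. Without Ang-II replicate 3 the members' counts were 25 and 0. The call of Syvn1 was lost when replicate 1 or 2 of Ang-II, or replicate 1 or 3 of si-NC, was left out. It was also lost with a pseudocount of 0.1, with the filter lowered or dropped, and with only the compared groups in the fit (adjusted p = 0.0501 to 0.110 by limma).

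**Figure D2:**
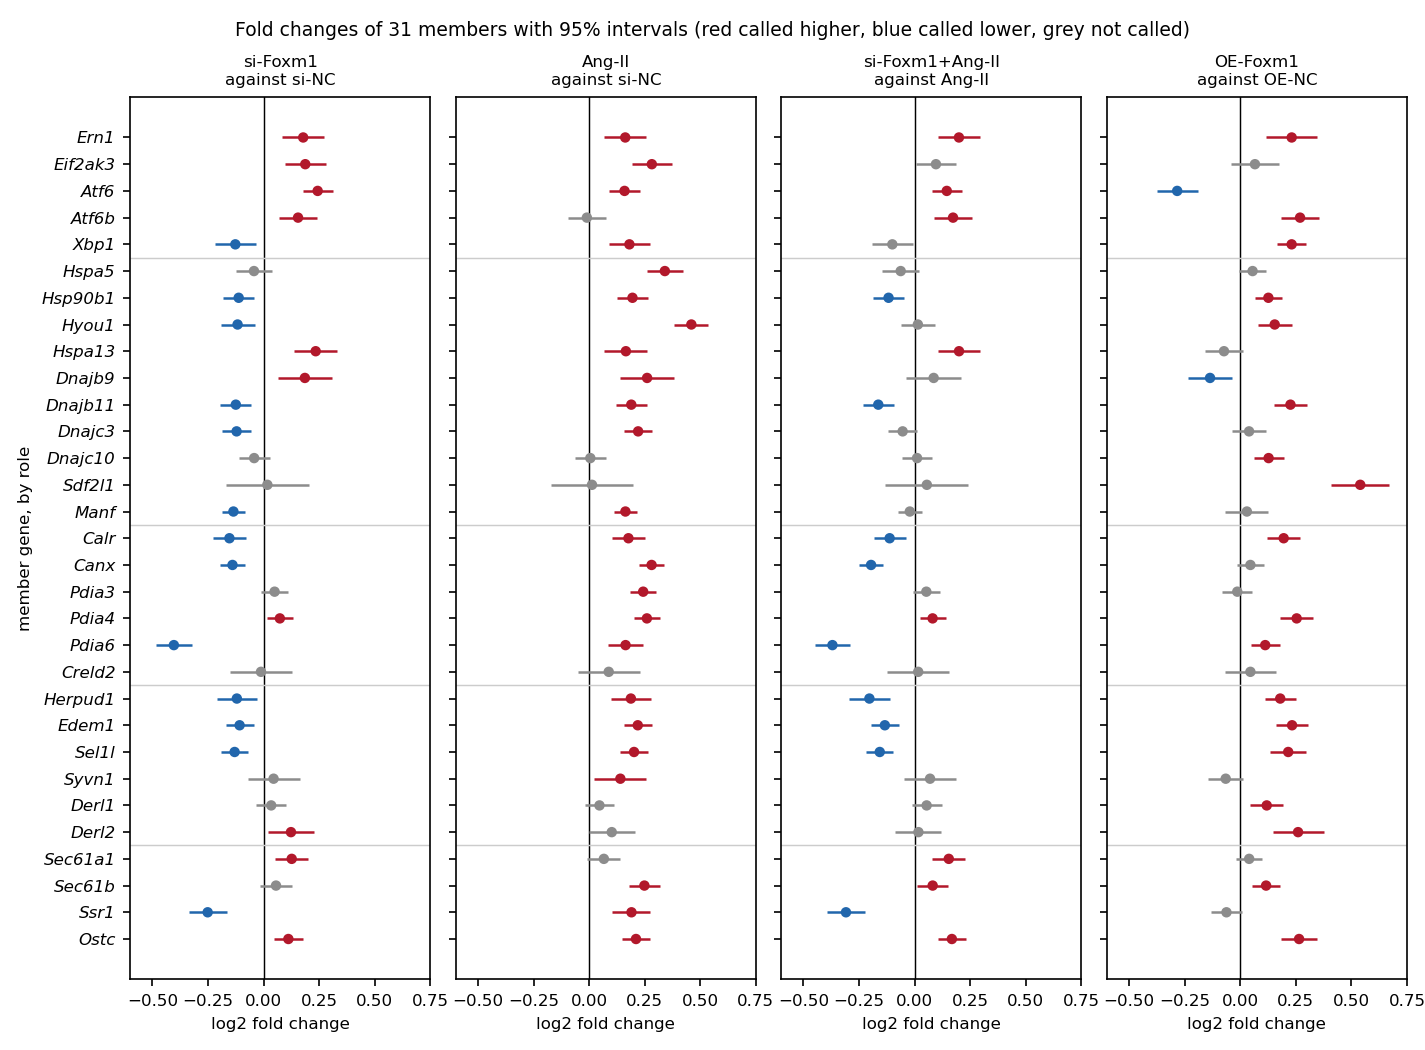
Log2 fold change (log2(FPKM + 1) scale) of 31 members in 4 comparisons, with 95% intervals as horizontal lines, members in rows by role. Red marks members called higher, blue those called lower and grey those not called. In Ang-II against si-NC 24 members are red and 0 blue, while si-Foxm1 against si-NC shows 10 red and 13 blue.

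Foxm1 siRNA without angiotensin divided the members. Of the 31 tested, 10 were called higher and 13 lower in si-Foxm1 against si-NC cells, where 48.5% of all genes were called higher and 17.2% lower. The members' median log2 fold change was -0.01, and that of all genes 0.11. Scaling mattered here: with median-of-ratios scaling, which moves the median of all genes to 0.00, 2 members were called higher and 17 lower, with 26.5% of all genes higher and 29.3% lower. With quantile normalization the members' counts were 4 and 15, beside 30.7% of all genes higher and 26.6% lower. The same 13 members called lower without scaling were called lower under both. Changes are therefore also given relative to the all-gene median of 0.11.

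The deepest fall was that of Pdia6, an isomerase that also restrains the sensor Ern1. It had 103, 96.6 and 106 FPKM in si-Foxm1 libraries, against 137, 138 and 129 FPKM in si-NC libraries, a log2 fold change of -0.40 ± 0.04 SE, adjusted p = 7.36e-07, or -0.52 relative to all genes. Ssr1, a subunit of the translocon-associated complex, came next with 19.1, 19.1 and 19.97 FPKM in si-Foxm1 and 23.2, 24.1 and 22.5 FPKM in si-NC cells (log2 fold change -0.25 ± 0.04 SE, adjusted p = 9.11e-05; -0.36 relative to all genes). The groups were separate for both.

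The other 11 members that fell did so by 0.11 to 0.15 on the log2 scale. They were the lectins Calr (-0.15) and Canx (-0.14), the chaperones and cofactors Manf, Dnajb11, Dnajc3, Hyou1 and Hsp90b1, the ERAD members Sel1l, Herpud1 and Edem1, and Xbp1. Hsp90b1, for example, had 269, 275 and 285 FPKM in si-Foxm1 libraries, against 299.7, 299.9 and 295 FPKM in si-NC libraries. Xbp1 had 43.6, 44.8 and 47.2 FPKM in si-Foxm1 and 50.4, 50.04 and 48.01 FPKM in si-NC cells (log2 fold change -0.13 ± 0.04 SE, adjusted p = 0.0193). Its groups did not overlap, but its call was lost without replicate 1 or 2 of either group (adjusted p up to 0.0828). Leaving out 1 library also ended the call of Herpud1 (si-Foxm1 replicate 3, or si-NC replicate 1 or 2). Hspa5 itself had 298, 306 and 299.6 FPKM in si-Foxm1 and 315, 319 and 298 FPKM in si-NC cells, which overlapped, with a log2 fold change of -0.04 (95% interval -0.13 to 0.04). Relative to all genes that is -0.16, and under both scalings it was called lower (-0.17 and -0.07).

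Of the 5 sensors and factors, 4 were called higher. Atf6 had 21.6, 21.7 and 21.3 FPKM in si-Foxm1 libraries, against 17.9, 18.5 and 17.8 FPKM in si-NC libraries, a log2 fold change of 0.24 ± 0.03 SE, adjusted p = 1.61e-05, or 0.13 relative to all genes. Eif2ak3, Ern1 and Atf6b rose by 0.19, 0.18 and 0.15, or 0.07, 0.07 and 0.04 relative to all genes, and none of the 3 was called under either scaling. Hspa13 had 13.9, 14.8 and 13.5 FPKM in si-Foxm1 and 12.3, 11.1 and 12.03 FPKM in si-NC cells (log2 fold change 0.23 ± 0.04 SE, adjusted p = 0.000448), and Atf6 and Hspa13 were the only members called higher under both scalings. Dnajb9, Sec61a1, Derl2, Ostc and Pdia4 were called higher at 0.07 to 0.19, and the values of Sec61a1, Ostc and Pdia4 turned negative under median-of-ratios scaling. Calls that ended with 1 library left out were those of Pdia4 (si-Foxm1 replicate 3, or si-NC replicate 2 or 3) and Derl2 (si-Foxm1 replicate 1 or 3, or si-NC replicate 3). Beside these changes, 16 of 18 cardiomyocyte markers and 9 of 9 tested macrophage markers were called lower, and 5 of 9 endothelial markers higher and 1 lower. Of the 7 tested smooth muscle and pericyte markers 6 were called lower and 0 higher, and of the 13 fibroblast markers 5 lower and 2 higher.

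With angiotensin present, the members again divided. In si-Foxm1+Ang-II against Ang-II cells, 8 members were called higher and 9 lower, where 44% of all genes were called higher and 17.4% lower. The members' median was 0.02, beside 0.09 over all genes. After median-of-ratios scaling these counts were 1 and 14, beside 27.5% of all genes higher and 28% lower. After quantile normalization they were 3 and 11, beside 29.8% and 25.8% of all genes. Without Ang-II replicate 3 they were 8 and 11. Pdia6 had 118, 113 and 119 FPKM in si-Foxm1+Ang-II libraries, against 154, 147 and 152 FPKM in Ang-II libraries (log2 fold change -0.37 ± 0.04 SE, adjusted p = 1.81e-06). Ssr1 had 21.2, 20.5 and 22.4 FPKM in si-Foxm1+Ang-II and 27.4, 27.01 and 25.7 FPKM in Ang-II cells (log2 fold change -0.31 ± 0.04 SE, adjusted p = 1.68e-05). Neither gene's groups overlapped.

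Herpud1, Canx, Dnajb11, Sel1l, Edem1, Hsp90b1 and Calr were the further members that fell, by 0.11 to 0.20. Canx, for example, had 156, 158 and 162 FPKM in si-Foxm1+Ang-II and 185, 182 and 179 FPKM in Ang-II libraries. The members that rose were Ern1 and Hspa13 (0.20 each), Atf6b, Ostc, Sec61a1, Atf6, Pdia4 and Sec61b, down to 0.08. Under median-of-ratios scaling Ern1 alone was called higher, and Pdia4 and Sec61b turned negative. Under quantile normalization Ern1 lost its call (0.10, adjusted p = 0.0610 by limma), so no member was called higher under both scalings. With 1 library left out, Calr lost its call in 1 case (Ang-II replicate 1), Pdia4 in 3 (Ang-II replicate 2, or si-Foxm1+Ang-II replicate 1 or 2) and Sec61b in 5 (all but Ang-II replicate 3). Hspa5 had 368, 379 and 383 FPKM in si-Foxm1+Ang-II and 415, 395 and 371 FPKM in Ang-II cells (-0.06, 95% interval -0.14 to 0.02), and Hyou1 had 49.1, 50.6 and 49.1 FPKM in si-Foxm1+Ang-II and 51.5, 49.6 and 46.3 FPKM in Ang-II cells (0.01, 95% interval -0.06 to 0.09). Hspa5 was called lower under median-of-ratios scaling (-0.16) and when Ang-II replicate 3, its lowest Ang-II library, was left out (-0.10, adjusted p = 0.0203 by limma). Xbp1 was likewise not called (-0.10, adjusted p = 0.0586 by limma), but was under both scalings, with voom and without Ang-II replicate 3 (-0.16, adjusted p = 0.00213). Cardiomyocyte markers were called lower in 15 of 18 cases and higher in 2, and macrophage markers lower in 9 of 9. Of the 7 tested smooth muscle and pericyte markers 6 were called lower and 0 higher, of the 13 fibroblast markers 5 lower and 2 higher, and of the 9 tested endothelial markers 5 higher and 2 lower.

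The siRNA effects with and without angiotensin were compared through their difference. Of the 31 members, 0 were called higher and 0 lower in this interaction by limma, where 0.403% of all genes were called higher and 0.519% lower. At an unadjusted p under 0.05 there were 3 members, Atf6, Hyou1 and Manf, and 1603 of all genes. By voom on recovered counts the members called were again 0 and 0. The members' differences lay between -0.11 and 0.13 on the log2 scale, and their 95% intervals between -0.27 and 0.30. The smallest adjusted p was 0.153. Of the 13 members called lower without angiotensin, 9 (69.2%) were called lower with it, which were all 9 of those lower with it; over all genes the shares were 80.4% and 79.6%. Of the 10 called higher without it, 7 (70%) were called higher with it, 87.5% of 8, and over all genes 80.6% and 88.8%. No member was called in opposite directions, which was rare over all genes too. Of the 1924 genes lower without angiotensin, 10 (0.52%) were higher with it. Of the 5418 genes higher without it, 10 (0.18%) were lower with it. The absence of such calls is therefore not particular to the members.

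Overexpression of Foxm1 raised more members than it lowered. In OE-Foxm1 against OE-NC cells 18 of 31 were called higher and 2 lower, where 27.1% of all genes were called higher and 28% lower. The median was 0.12 for the members and -0.00 for all genes. By role, 3 of 5 sensors and factors, 5 of 10 chaperones and cofactors, 3 of 6 lectins and isomerases, 5 of 6 tested ERAD members and 2 of 4 translocation and glycosylation members rose. Median-of-ratios scaling gave the same counts, beside 27.6% of all genes higher and 27.6% lower. In these libraries 11 of 18 cardiomyocyte markers, 9 of 13 fibroblast markers and 6 of 9 macrophage markers were called higher. The rest of each list was called lower or not called. For endothelial and smooth muscle markers, sums are given here and not calls. The summed endothelial markers were also higher (196 to 201 against 179 to 184 FPKM). The sums of the smooth muscle and pericyte markers overlapped (183 to 193 and 185 to 193 FPKM).

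Sdf2l1, which joins Hspa5 complexes and is induced in ER stress, rose most. It had 16.8, 18.1 and 17.2 FPKM in OE-Foxm1 libraries, against 12.6, 10.5 and 11.95 FPKM in OE-NC libraries, a log2 fold change of 0.54 ± 0.06 SE, adjusted p = 3.53e-05. All 3 OE-Foxm1 libraries lay above all 3 OE-NC libraries. In the knockdown arm the same gene showed no call in any comparison, with means of 13.6 ± 1.45, 13.02 ± 0.623, 13.1 ± 1.61 and 12.9 ± 1.21 FPKM (SD, n = 3 each) in si-Foxm1+Ang-II, Ang-II, si-Foxm1 and si-NC cells.

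Xbp1 had 51.2, 50.5 and 49.2 FPKM in OE-Foxm1 libraries, against 42.9, 42.6 and 42.6 FPKM in OE-NC libraries (log2 fold change 0.23 ± 0.03 SE, adjusted p = 9.28e-05). Among the sensors, Ern1 rose by 0.23 and Atf6b by 0.27, and Eif2ak3 was not called (0.07, 95% interval -0.04 to 0.18). Atf6 fell: it had 21.95, 23.2 and 22.3 FPKM in OE-Foxm1 and 26.5, 29.1 and 27.2 FPKM in OE-NC cells (log2 fold change -0.28 ± 0.04 SE, adjusted p = 0.000229). Dnajb9, which Ern1 and Xbp1 are known to induce, also fell (log2 fold change -0.14 ± 0.05 SE, adjusted p = 0.0262), a call that was lost without a filter on low values, with quantile normalization and without OE-Foxm1 replicate 1 or 3 or OE-NC replicate 1 or 2.

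Edem1, Sel1l and Herpud1 rose in ERAD by 0.23, 0.22 and 0.18, with Derl2 and Derl1 at 0.26 and 0.12. Edem1 had 20.7, 21.2 and 21.1 FPKM in OE-Foxm1 libraries, against 17.6, 17.6 and 17.96 FPKM in OE-NC libraries. Of the chaperones, Dnajb11 rose by 0.23, Hyou1 by 0.16, and Hsp90b1 and Dnajc10 by 0.13 each. Pdia4, Calr and Pdia6 rose by 0.25, 0.20 and 0.11; Ostc and Sec61b rose by 0.26 and 0.12. Hspa5 had 340.4, 351 and 346 FPKM in OE-Foxm1 and 338, 328 and 331 FPKM in OE-NC libraries, which did not overlap, but its log2 fold change of 0.06 was not called (adjusted p = 0.105).

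**Figure D3:**
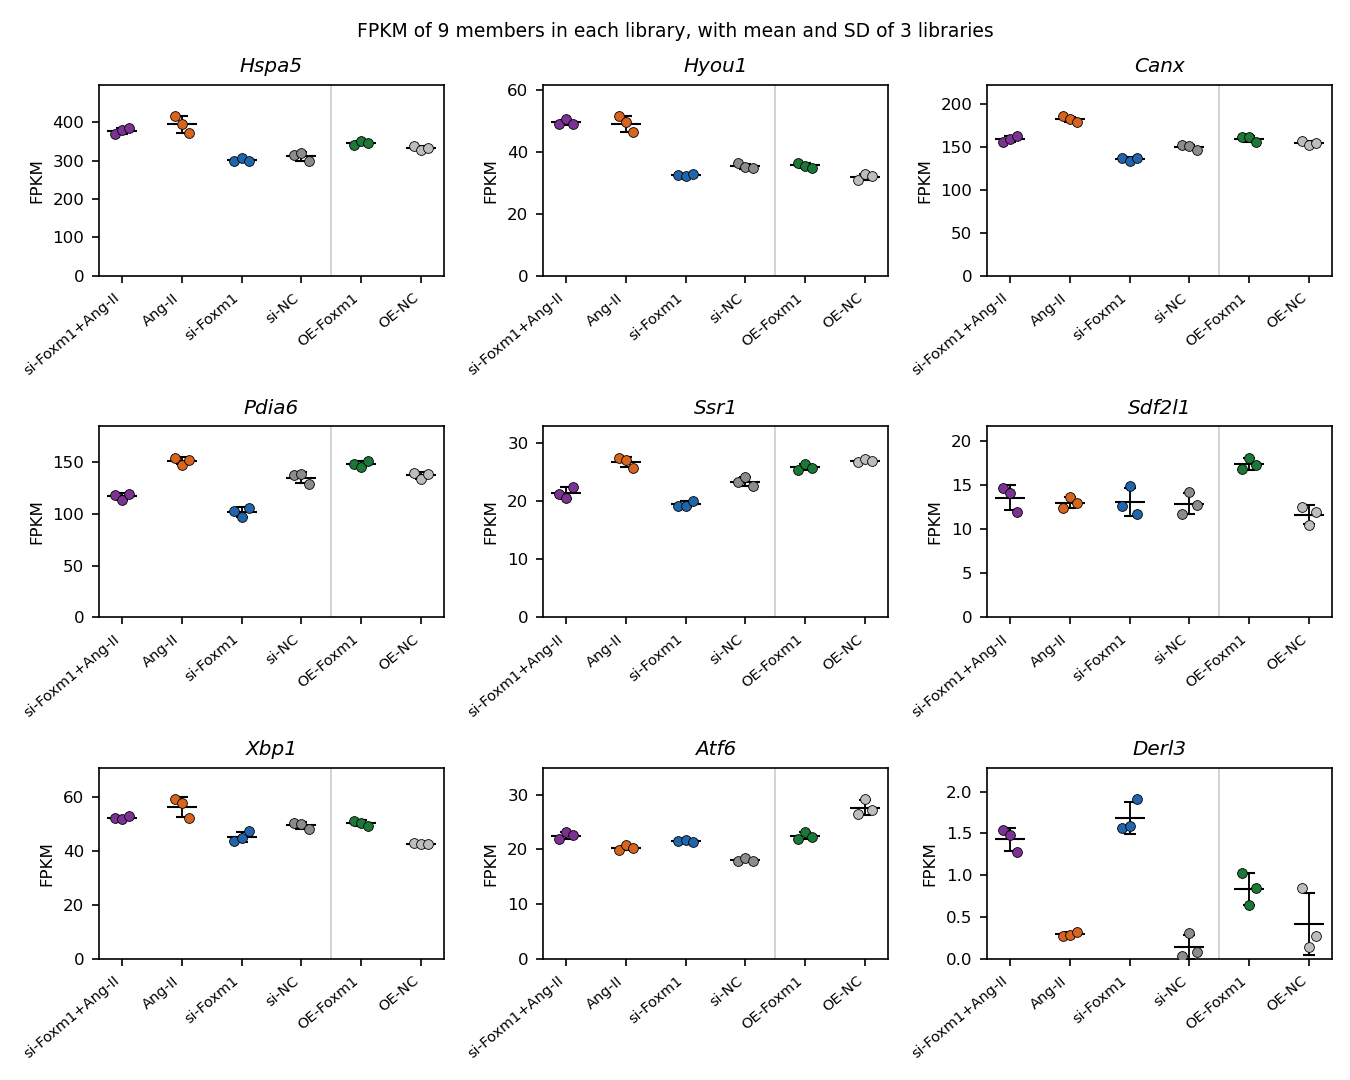
FPKM of 9 members in each library (points), with the mean (wide dash) and SD (bars) of the 3 libraries of a group, the knockdown arm left of the grey line and the overexpression arm right of it. Hyou1 and Hspa5 are high in both groups with angiotensin, Pdia6, Ssr1 and Canx are lower with the siRNA than in the matched group without it, and Derl3 is at or above 1.28 FPKM in the libraries with Foxm1 siRNA.

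The knockdown and overexpression comparisons share no library, so their calls can be set side by side. Of the 13 members lower in si-Foxm1 against si-NC cells, 9 (69.2%) were higher in OE-Foxm1 against OE-NC cells, which is 50% of the 18 higher there. They were Xbp1, Hsp90b1, Hyou1, Dnajb11, Calr, Pdia6, Herpud1, Edem1 and Sel1l. Over all genes tested in both arms the count was 730 of 1904 (38.3%) and of 3003 (24.3%). Members were more often higher with overexpression to begin with, at 18 of all 31. The excess over all genes includes that count, and whether the overlap goes beyond it was not tested. Of the 10 members higher with the siRNA, 2 (20%), Atf6 and Dnajb9, were lower with overexpression, beside 32.2% of all genes higher with the siRNA. Another 5 (50%), Ern1, Atf6b, Pdia4, Derl2 and Ostc, were called higher in both, beside 22.1% of all genes, and with the siRNA none of these 5 was called higher under median-of-ratios scaling. Of the 24 members higher in Ang-II against si-NC cells, 13 (54.2%) were higher in OE-Foxm1 cells, 72.2% of the 18. Over all genes these shares were 37.2% and 20.6%. Among all 31 members, 24 were higher in Ang-II and 18 in OE-Foxm1 cells, which alone makes many shared calls. A link between the 2 sets of calls was not tested.

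**Figure D4:**
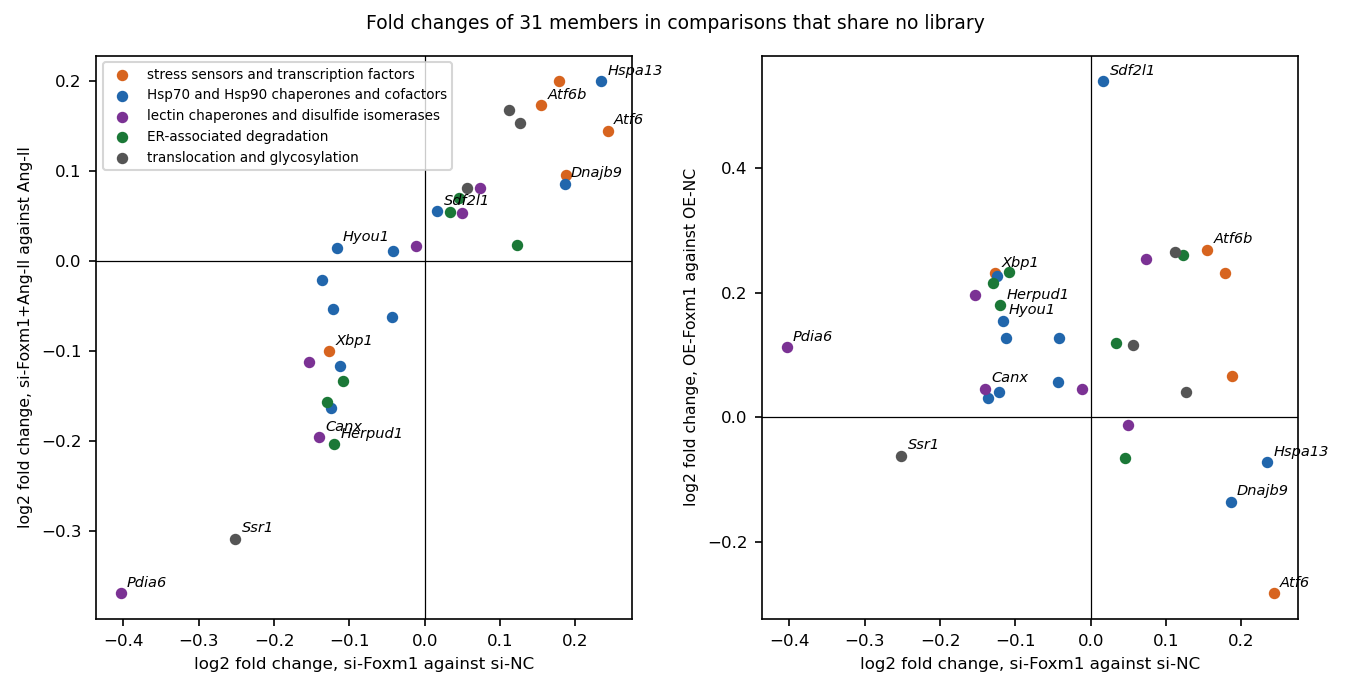
Log2 fold change of 31 members in si-Foxm1 against si-NC (horizontal axes), set against that in si-Foxm1+Ang-II against Ang-II (left) and in OE-Foxm1 against OE-NC (right), each point a member coloured by role. Pdia6 and Ssr1 lie lowest on both axes at left; at right Pdia6 lies below 0 on the horizontal axis and above 0 on the vertical one, and Atf6 the reverse.

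The members were also counted apart by the promoter sequences. Of the 11 members with an ERSE or ERSE-II match, 10 were tested, and 0 were called higher and 7 lower in si-Foxm1 against si-NC cells. Of the 14 members whose window held no match, 6 were called higher and 4 lower. With angiotensin the counts were 0 higher and 6 lower with a match, and 4 higher and 3 lower without one. Over all genes 48.5% were higher and 17.2% lower without angiotensin, and 44% and 17.4% with it. Median-of-ratios scaling turned the first split into 0 higher and 8 lower with a match, against 0 higher and 6 lower without. It turned the split with angiotensin into 0 higher and 8 lower with a match, against 1 higher and 5 lower without. Quantile normalization gave 0 higher and 7 lower there with a match, against 0 higher and 4 lower without. In both pairs the direction of the members without a match thus depended on the scaling. In Ang-II against si-NC cells, 9 of 10 members with a match and 10 of 14 without rose, beside 15.2% of all genes. In OE-Foxm1 against OE-NC cells the counts were 5 of 10 higher with a match, and 10 of 14 higher and 1 lower without. Over all genes 27.1% were higher there and 28% lower. Among the tested members with a match the values without angiotensin ran from -0.40 (Pdia6, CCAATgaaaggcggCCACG) to 0.04 (Syvn1, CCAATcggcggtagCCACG). The difference between the groups of members was not tested.

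Derl3, a Derlin of ERAD that is scarce in many tissues, was the one member near the limit of detection and the one with the widest range. It had 1.54, 1.48 and 1.28 FPKM in si-Foxm1+Ang-II libraries, against 0.276, 0.286 and 0.328 FPKM in Ang-II libraries. Without angiotensin it had 1.56, 1.59 and 1.91 FPKM in si-Foxm1 libraries, against 0.0403, 0.313 and 0.0787 FPKM in si-NC libraries. All 6 libraries with Foxm1 siRNA lay above all 6 without it. These levels rest on few fragments: 39, 40 and 48 in si-Foxm1 and 1, 8 and 2 in si-NC libraries, and 40, 37 and 31 in si-Foxm1+Ang-II and 7, 7 and 8 in Ang-II libraries. Per counted fragment of the libraries, si-Foxm1 exceeded si-NC cells by 11.6-fold (95% interval 6.29 to 23.9, from counting error only). This ratio rests on the si-NC replicate with 8 of the 11 fragments: without si-NC replicate 2 it was 28.3-fold (9.46 to 138.9), and with each other library left out it was 8.61-fold to 12.1-fold. In the pair with angiotensin, si-Foxm1+Ang-II exceeded Ang-II cells by 4.85-fold (3.05 to 8.06). With the filter lowered to a mean of 0.1 FPKM, limma gave log2 fold changes of 1.24 ± 0.08 (SE; adjusted p = 5.63e-08) and 0.91 ± 0.08 (SE; adjusted p = 1.07e-06) on the log2(FPKM + 1) scale, which understates low genes. An exact permutation test of the FPKM values (two-sided) gave p = 0.1 for each, the smallest that 3 libraries against 3 allow. In Ang-II against si-NC cells the sums were 22 and 11 fragments (log2 fold change 0.19, adjusted p = 0.0848).

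In the overexpression arm Derl3 had 1.03, 0.640 and 0.846 FPKM in OE-Foxm1 libraries, against 0.844, 0.142 and 0.272 FPKM in OE-NC libraries, which overlapped (log2 fold change 0.40, adjusted p = 0.0583 by limma). Its promoter window held an ERSE, printed above, on the strand opposite to the gene. Its relatives Derl1 and Derl2 had log2 fold changes of 0.03 and 0.12 in si-Foxm1 against si-NC cells.

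The members were set beside 128 other ER genes in 6 lists, of which 124 were tested. In Ang-II against si-NC cells 71 (57.3%) rose and 6 (4.84%) fell, beside 15.2% and 29.2% of all genes. With median-of-ratios scaling 87 rose and 4 fell, beside 20.7% and 22.9% of all genes. Of the 24 tested genes of ER folding and oxidation, 19 rose and 0 fell, with log2 fold changes for the collagen chaperone Fkbp10 of 0.47, the isomerase Pdia5 of 0.52 and P4hb, the main disulfide isomerase, of 0.32. The 18 genes of the arm downstream of Eif2ak3 and the transcription factor Atf4 counted 10 higher and 2 lower, led by Stc2, Nupr1 and Ppp1r15a (the phosphatase subunit that restores translation) at 0.64, 0.92 and 0.51. Nupr1 averaged 236 FPKM in Ang-II and 124 FPKM in si-NC cells. Of 26 further translocon, signal peptidase and oligosaccharyltransferase genes, 17 rose and 0 fell, with Stt3a, Rpn1 and Krtcap2 at 0.24, 0.23 and 0.21. In COPII export, 12 of 20 rose and 1 fell, and the cargo receptor Lman1 led at 0.46, beside its partner Mcfd2 at 0.33. Of 22 further ERAD genes 8 rose and 1 fell, with Rhbdd1 at 0.36 and Os9 at 0.18. The sensors' processing enzymes and other ER transcription factors counted 5 higher and 2 lower of 14, with Creb3l1, a factor known for collagen secretion, at 0.38.

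In si-Foxm1 against si-NC cells 53 of these 124 genes (42.7%) were called higher and 15 (12.1%) lower, shares near those of all genes (48.5% and 17.2%). Median-of-ratios scaling turned the split into 21 (16.9%) higher and 53 (42.7%) lower, beside 26.5% and 29.3% of all genes, so the nearness depended on scaling. Quantile normalization gave 25.8% higher and 27.4% lower, beside 30.7% and 26.6% of all genes. The ERAD genes Rhbdd1 and Ube2j1 fell (-0.54 and -0.36 on the log2 scale), as did Vldlr and Atf5 of the Atf4 arm (-0.61 and -0.33). Rhbdd1 averaged 3.51 FPKM in si-Foxm1 and 5.54 FPKM in si-NC cells. Map3k5, the kinase ASK1 that signals with Ern1, and Nfe2l2, a known substrate of Eif2ak3, rose by 0.56 and 0.46. In si-Foxm1+Ang-II against Ang-II cells 50 (40.3%) were higher and 17 (13.7%) lower, again near the shares of all genes (44% and 17.4%). With median-of-ratios scaling they were 19 (15.3%) and 44 (35.5%), beside 27.5% and 28% of all genes. Rhbdd1, Ube2j1, Vldlr and Atf5 again fell (-0.52, -0.33, -0.46 and -0.22), and Map3k5 and Nfe2l2 rose by 0.57 and 0.28.

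Foxm1 overexpression gave 56 of the 124 (45.2%) higher and 23 (18.5%) lower, beside 27.1% and 28% of all genes. With median-of-ratios scaling the counts were 58 and 23, beside 27.6% and 27.6% of all genes. The translocon-associated Ssr3, the complex partner of the member Ssr1, averaged 189.7 FPKM in OE-Foxm1 and 129.7 FPKM in OE-NC cells (log2 fold change 0.54), whereas Ssr1 had a log2 fold change of -0.06 without a call. Of the folding list 13 of 24 rose and 3 fell, with the thioredoxin-like Txndc12 at 0.41 and the prolyl isomerase Fkbp11 at 0.48. The arm downstream of Eif2ak3 counted 6 higher and 8 lower: Sesn2 and Ppp1r15b fell (-0.69 and -0.44) while Atf5 rose by 0.36. The ERAD lectin Os9 rose by 0.44 and the mannosidase Man1b1 fell (-0.31). Mcfd2 and Lman1 of COPII export rose by 0.40 and 0.35, and Creb3l1 by 0.41.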

How the data were processed

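RNA was extracted with the mirVana kit, kept at an RNA integrity number of at least 7, and made into TruSeq stranded mRNA libraries from 4 µg of total RNA, per the labels' protocols. The tools fastp, HISAT2 and HTSeq and the genome mm39 are named in the submitters' processing notes; the sources used here do not give versions, annotation, gene lengths or the strand setting. The authors deposited 1 table of FPKM with 18 columns, matched to samples by title, and 0 columns lacked a sample. Whole counts were recovered from ratios of FPKM between libraries, and all 17960 genes above 0 gave whole counts within 0.02. A count of 0 allows up to 3 counts, or 0.155 to 0.200 FPKM for a gene of 1 kb. Such limits and intervals of counts cover counting error only.

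The values log2(FPKM + 1) were fitted with limma 3.58.1 (R 4.3.3) with a mean-variance trend. The 12 knockdown libraries entered 1 fit and the 6 overexpression libraries another. Genes with a mean of at least 1 FPKM were tested (11180 and 11259), Benjamini-Hochberg adjustment ran over all of these, and calls were made under 0.05. Fits were also run on simulated counts with a known set of changed genes of random direction. The simulation held no shift of the all-gene median, so it cannot speak to the dependence on scaling. Python 3.11.15 with numpy 2.4.6, pandas 2.3.3, scipy 1.17.1 and matplotlib 3.10.9 did the rest.

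Alternatives left out each library in turn, added a replicate block, lowered the pseudocount to 0.1, lowered the filter to 0.1 FPKM or dropped it, scaled by median-of-ratios or quantiles, used voom on the recovered counts, or fitted all 18 libraries or only the compared groups. The 32 members and the other lists were chosen with earlier results of these data known. All members and Foxm1 were named, and of each other list up to 3 called genes with the smallest p in each comparison were eligible. Protein sequences were not used here.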

Additional observations from a re-analysis of the deposited data

How the results depend on the processing

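Limits come first. Groups held 3 libraries, and FPKM depends on what the other transcripts of a library do, so the siRNA comparisons turn on scaling. Under median-of-ratios scaling the members called higher numbered 2 in si-Foxm1 against si-NC and 1 in si-Foxm1+Ang-II against Ang-II, with 14 lower in the second. Beside these, 26.5% and 27.5% of all genes were called higher, and 28% lower in the second. Under quantile normalization 4 and 3 members were called higher, beside 30.7% and 29.8% of all genes. In si-Foxm1 against si-NC, Pdia3 (-0.0801), Pdia4 (-0.0547), Derl1 (-0.0939), Sec61a1 (-0.0022) and Ostc (-0.0175) changed sign under median-of-ratios scaling, and Pdia4 (-0.00030) under quantile normalization. In si-Foxm1+Ang-II against Ang-II, Dnajc10 (-0.0877), Pdia4 (-0.0186) and Sec61b (-0.0188) changed sign under median-of-ratios scaling. All of these values were called in one of the settings. Under median-of-ratios scaling a further 3 uncalled members without angiotensin and 8 with it changed sign. These scalings move the median of all genes toward 0 by construction. Of the 2 members lower in OE-Foxm1 against OE-NC, 1 was called without a filter, 1 with quantile normalization, and 1 to 2 with 1 library left out.

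Over the members and comparisons, 1081 of 1116 values with 1 library left out kept their side of the threshold, 30 lost a call and 5 gained one. The sign changed in 54, of which 35 were in the interaction and 0 were called with or without the library. Voom kept 153 of 155, losing Sec61b and gaining Xbp1 in si-Foxm1+Ang-II against Ang-II.

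Nothing in the labels says that a replicate number marks a shared culture or day. Deviations of same-numbered libraries correlated at 0.11 to 0.18 in the 4 pairs of replicate 2, and at -0.04 to 0.05 in the 8 pairs of replicates 1 and 3. Pairs with different numbers lay between -0.156 and 0.127. In each comparison the replicate 2 pair had the highest correlation. Whether the replicate 2 libraries share a culture or day was not tested. The main fits did not take the numbers as pairing the samples. Adding the replicate block gave 9 members higher and 13 lower in si-Foxm1 against si-NC, 24 and 0 in Ang-II against si-NC, 9 and 9 in si-Foxm1+Ang-II against Ang-II, none in either direction (0 and 0) in the interaction and 18 and 2 in OE-Foxm1 against OE-NC. It changed no call except those of Derl2 in si-Foxm1 against si-NC (adjusted p = 0.0506) and Eif2ak3 in si-Foxm1+Ang-II against Ang-II (adjusted p = 0.0440). Derl3 had 1 to 48 fragments per library, which limits its ratios. How much counting error adds to the spread of the other members was not tested.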
